A study of Mus musculus with 16 samples.

Results

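The mitosis and G2/M genes encode the proteins that carry a cell from the end of DNA replication through chromosome segregation and cell division, and 40 named members of this class were followed in cultured mouse ovarian follicles. They fell into 8 groups by role: the kinase CDK1 and its partners (Cdk1, Ccnb1, Ccnb2, Ccna2, Cdc25c, Cks1b, Cks2), other mitotic kinases (Plk1, Aurka), the chromosomal passenger complex (Aurkb, Incenp, Birc5, Cdca8), the spindle checkpoint with the anaphase-promoting complex (Bub1, Bub1b, Mad2l1, Ttk, Cdc20, Ube2c, Cdca3), the centromere and kinetochore (Cenpa, Cenpe, Cenpf, Ndc80, Nuf2, Spc25), spindle motors and microtubule proteins (Kif11, Kif2c, Kif4, Tpx2, Nusap1, Hmmr), cytokinesis (Kif20a, Kif23, Prc1, Racgap1, Ect2, Anln), and chromosome structure with the proliferation marker (Top2a, Mki67). Of the 40 genes, 39 had a probe set under their symbol in the annotation used, and each of these 39 passed the filter on low signals, among 12172 genes tested of 18193 with a probe set. Ccnb1 was not analysed here.

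RNA came from follicles between the preantral and small antral stage, dissected from ovaries of female C57BL/6Tac mice whose age is labelled 8 weeks and given as 6 to 8 weeks in the design text. Each experiment drew on the follicles of 8 mice, mixed in one pool, which went into single-drop cultures without AMH or with 50 ng/ml recombinant AMH for 12 or 24 h. The medium of every group, controls included, held 80 IU/L FSH and 10 IU/L LH. The 4 groups were control 12 h, AMH 12 h, control 24 h and AMH 24 h, with 4 arrays each and 6 to 9 follicles per array, and an AMH array and a control array of the same number and time formed a pair from one pool. The comparisons ask whether these transcripts differ with AMH at either time and between the times of culture. All values below are levels on the scale of log2(signal + 1.46) of the deposited array signal, and a change is a difference between such levels. That scale understates the change of genes with low signals. Levels of different genes come from different probes and are not compared with each other.

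Entry into mitosis is driven by CDK1 bound to a cyclin, which polo-like and Aurora kinases reinforce. The spindle checkpoint then holds back the anaphase-promoting complex until every chromosome is attached, after which cyclins are destroyed and the cell divides. In a growing follicle the dividing cells are mainly granulosa cells, while the oocyte is arrested in the prophase of meiosis and stores maternal transcripts, those of several cell division genes among them. Anti-Müllerian hormone (AMH), a member of the TGF-β family secreted by granulosa cells of small follicles, is known as a brake on follicle recruitment and on the response to FSH. Many G2/M genes share a promoter layout, a cell cycle homology region (CHR) bound by the MuvB complex through LIN54, near CCAAT boxes bound by NF-Y. MuvB joins p107 or p130 in resting cells and B-MYB or FOXM1 in dividing ones.

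That layout is shown here as background, and its part in any change with time was not tested. The 150 bases before the transcription start are printed for Cks2, Ect2, Cdc20, Cks1b, Prc1 and Ube2c, for Cdk1 and for Top2a. Those from Cks2 to Ube2c are among the 7 genes with the smallest p values for time. Top2a was taken because its matches are dense. Kif2c, the remaining gene of those 7, is not printed. Its promoter window, defined below, held a CHR match but no CCAAT box. Sequences are from RefSeq on GRCm38.p6, read 5′ to 3′ on the gene's strand, with CCAAT boxes and CHR matches in capitals. They lie at chr10:69352913-69353062 (Cdk1, minus strand), chr3:89418292-89418441 (Cks1b, minus), chr13:51645082-51645231 (Cks2, plus), chr4:118437344-118437493 (Cdc20, minus), chr2:164769779-164769928 (Ube2c, plus), chr3:27153855-27154004 (Ect2, minus), chr7:80294326-80294475 (Prc1, plus) and chr11:99024190-99024339 (Top2a, minus).
Cdk1: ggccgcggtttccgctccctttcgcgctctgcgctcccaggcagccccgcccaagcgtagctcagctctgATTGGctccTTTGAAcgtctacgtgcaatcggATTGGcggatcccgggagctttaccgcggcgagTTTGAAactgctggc
Cks1b: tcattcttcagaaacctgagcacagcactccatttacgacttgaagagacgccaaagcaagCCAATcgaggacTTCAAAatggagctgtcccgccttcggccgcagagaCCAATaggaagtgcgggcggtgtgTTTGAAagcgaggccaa
Cks2: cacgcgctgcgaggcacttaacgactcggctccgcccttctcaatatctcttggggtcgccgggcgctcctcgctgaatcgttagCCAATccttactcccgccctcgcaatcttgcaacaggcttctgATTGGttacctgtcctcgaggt
Cdc20: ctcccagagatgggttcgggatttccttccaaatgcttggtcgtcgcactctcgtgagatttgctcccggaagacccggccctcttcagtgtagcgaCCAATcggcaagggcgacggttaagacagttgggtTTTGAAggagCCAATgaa
Ube2c: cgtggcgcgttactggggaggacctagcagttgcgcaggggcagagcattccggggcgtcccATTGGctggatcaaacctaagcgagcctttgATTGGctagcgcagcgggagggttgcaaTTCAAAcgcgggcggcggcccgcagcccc
Ect2: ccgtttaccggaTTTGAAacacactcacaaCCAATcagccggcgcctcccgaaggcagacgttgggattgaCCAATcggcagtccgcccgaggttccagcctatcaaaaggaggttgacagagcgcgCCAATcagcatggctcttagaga
Prc1: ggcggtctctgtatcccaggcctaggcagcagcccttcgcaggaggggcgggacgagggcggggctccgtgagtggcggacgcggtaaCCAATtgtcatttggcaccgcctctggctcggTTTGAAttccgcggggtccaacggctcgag
Top2a: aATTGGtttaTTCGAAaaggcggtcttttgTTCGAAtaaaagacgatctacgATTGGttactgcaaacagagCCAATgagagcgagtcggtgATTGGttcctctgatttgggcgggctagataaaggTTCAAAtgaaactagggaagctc

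Each of the 8 stretches holds at least 1 CCAAT box, and each except that of Cks2 holds a CHR match. These stretches were selected, with Kif2c left out and Top2a added for its matches, so their counts do not describe the class. Top2a has 4 CCAAT boxes and 3 CHR matches in this stretch, Ect2 3 and 1, Cdk1 and Cks1b 2 of each, Cdc20 and Ube2c 2 and 1, Prc1 1 of each, and Cks2 2 CCAAT boxes. Over windows of 300 bases, from 250 before to 50 after the start, 34 of the 40 genes matched a RefSeq entry, with 36 windows. The search covered both strands. A CCAAT box was the letters CCAAT, which appear as ATTGG when the box lies on the other strand. A CHR match was TTTGAA, which appears as TTCAAA when it lies on the other strand, or TTCGAA, which is a palindrome. A CCAAT box was found in 29 of the 36 windows (80.6%), against 37.4% of all 32851 promoter windows of that length. A CHR match was found in 29 (80.6%), against 19.2%, and both motifs in 26 (72.2%), against 7.52%. Neither was found in 4 windows (11.1%), against 50.9% of all. Ccna2, Cdc25c, Aurkb, Incenp, Tpx2 and Kif20a had no entry. The 27 measured genes with a CHR match had a median change from 12 h to 24 h of -1.04 over both arms, the 6 without a match of -0.89 and the 6 without an entry of -1.10. These are descriptions of letters in a window, not of binding.

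**Figure D1:**
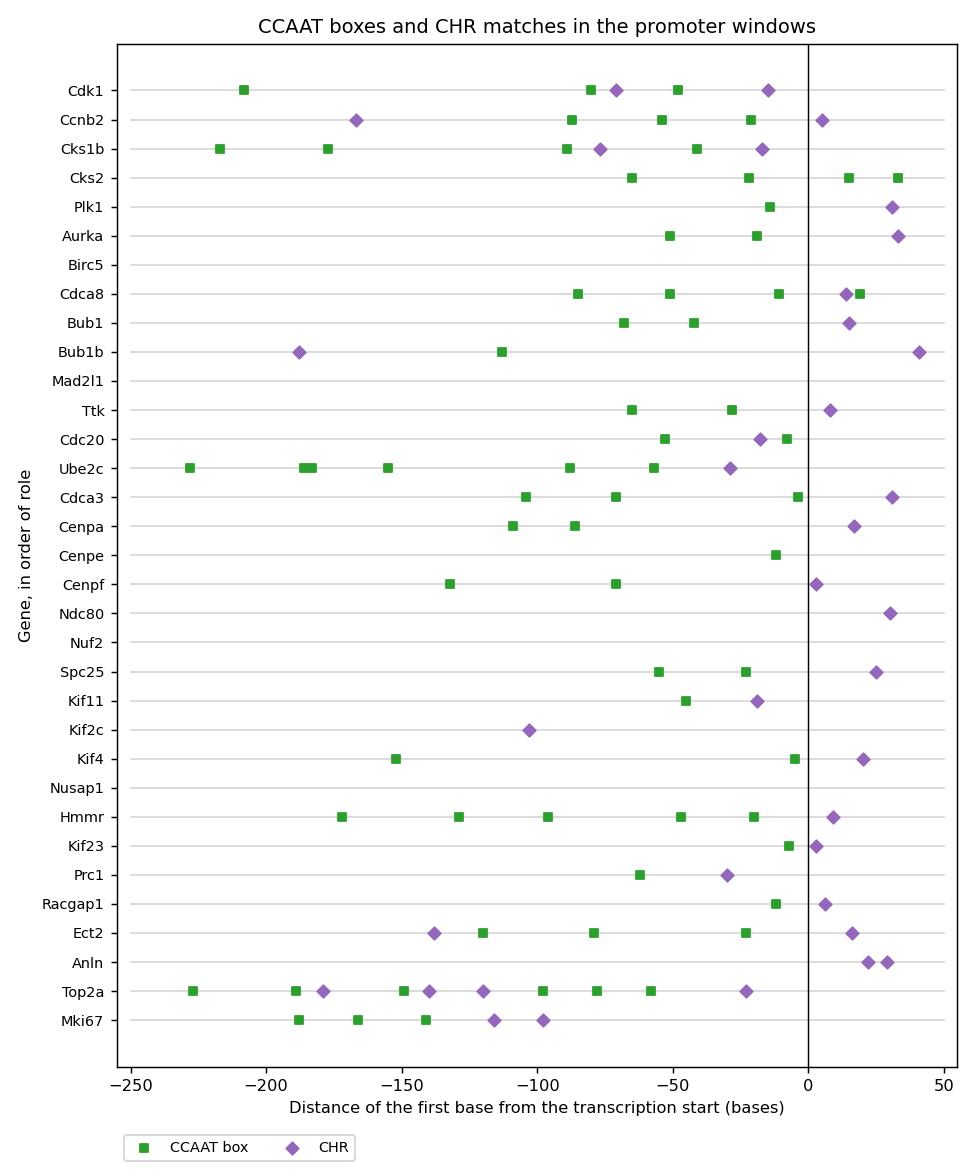
Positions of CCAAT boxes (squares) and CHR matches (diamonds) in the promoter windows of the 33 measured genes with a RefSeq entry, as the distance in bases of the first base of each match from the transcription start (0); where a gene has several windows, that of the most downstream start is drawn. CCAAT boxes lie mostly upstream of the start and CHR matches mostly around it, and 4 genes (Birc5, Mad2l1, Nuf2 and Nusap1) have neither.

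Across the 16 arrays the median signal as deposited ranged from 27.8 to 40.2. Oocyte markers were well measured, with levels from 7.31 to 9.89 for Gdf9 and from 8.53 to 10.76 for Zp3 over the 16 arrays. Of the granulosa markers Inha lay between 9.55 and 12.17. Amh itself was low, at 2.40 to 5.79, with a median of 4.24 near the filter level of 4.18. Fshr, at 2.56 to 8.12, was low on some arrays, as was the theca marker Cyp17a1 (2.43 to 7.31). The mean of 26 oocyte markers ranged 4.84-fold between arrays, and its highest values were on control replicate 3 at 12 h (9.08), control replicate 4 at 24 h (8.78) and AMH replicate 1 at 24 h (8.63). These arrays are followed beside the results below. The number of arrays, 4 in each group, is a limit on the precision.

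From 12 h to 24 h of culture the mitosis genes fell as a block. With both arms averaged, 37 of 39 were lower at 24 h by limma at an adjusted p below 0.05, and none was higher, against 15.1% of all genes tested called lower. The median change was -0.96, or 1.95-fold lower, against -0.01 over all genes, and every one of the 39 changes lay below 0. Cdc25c, the phosphatase that activates CDK1, had a change of -1.78 (3.43-fold lower), the outer kinetochore gene Ndc80 of -1.68 (3.21-fold) and the spindle protein gene Hmmr of -1.49 (2.81-fold), and at the other end Cks1b had a change of -0.44 (1.35-fold lower). The 2 genes that did not pass were the cyclin gene Ccnb2, at -0.68 (SE 0.27, adjusted p = 0.0688), and the checkpoint gene Bub1b, at -0.52 (SE 0.24, adjusted p = 0.109). This fit takes the 16 arrays as independent, although the AMH and the control array of a pair came from one pool. With 1 value per pair, the mean of both arrays, and 4 pairs against 4, the same 37 genes were called lower. That fit takes the pairs of 12 h and 24 h as independent. The labels do not say whether a pool was shared across the times. With the 4 arrays of replicate 2 left out, 11 of the 39 were called, with a median of -0.72. In whole follicles, fewer dividing cells and less RNA per dividing cell cannot be told apart.

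The mean level of the 39 genes stood at 8.22, 8.80, 7.88 and 8.67 on the 4 control arrays at 12 h, and at 6.60, 7.28, 7.60 and 8.20 on those at 24 h. With AMH it was 7.93, 8.91, 8.32 and 8.05 at 12 h and 7.95, 6.97, 7.36 and 6.73 at 24 h. Control replicate 4 and AMH replicate 1 were the high arrays at 24 h. The former held 35 of the 39 genes, and the latter 27, at or above the lowest 12 h array of its own arm. The other 24 h arrays held between 0 and 10 genes in that range. Complete separation of the times differed between the arms in count, which was not tested: in controls 4 of 39 genes (Cks1b, Cks2, Cdca8 and Ect2) had all 24 h arrays below all 12 h arrays, against 10.9% of all genes, and with AMH 12 of 39, against 7.65%. Over the 16 arrays of both arms together, Cks2 alone separated (2.56% of the genes), against 3.23% of all.

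**Figure D2:**
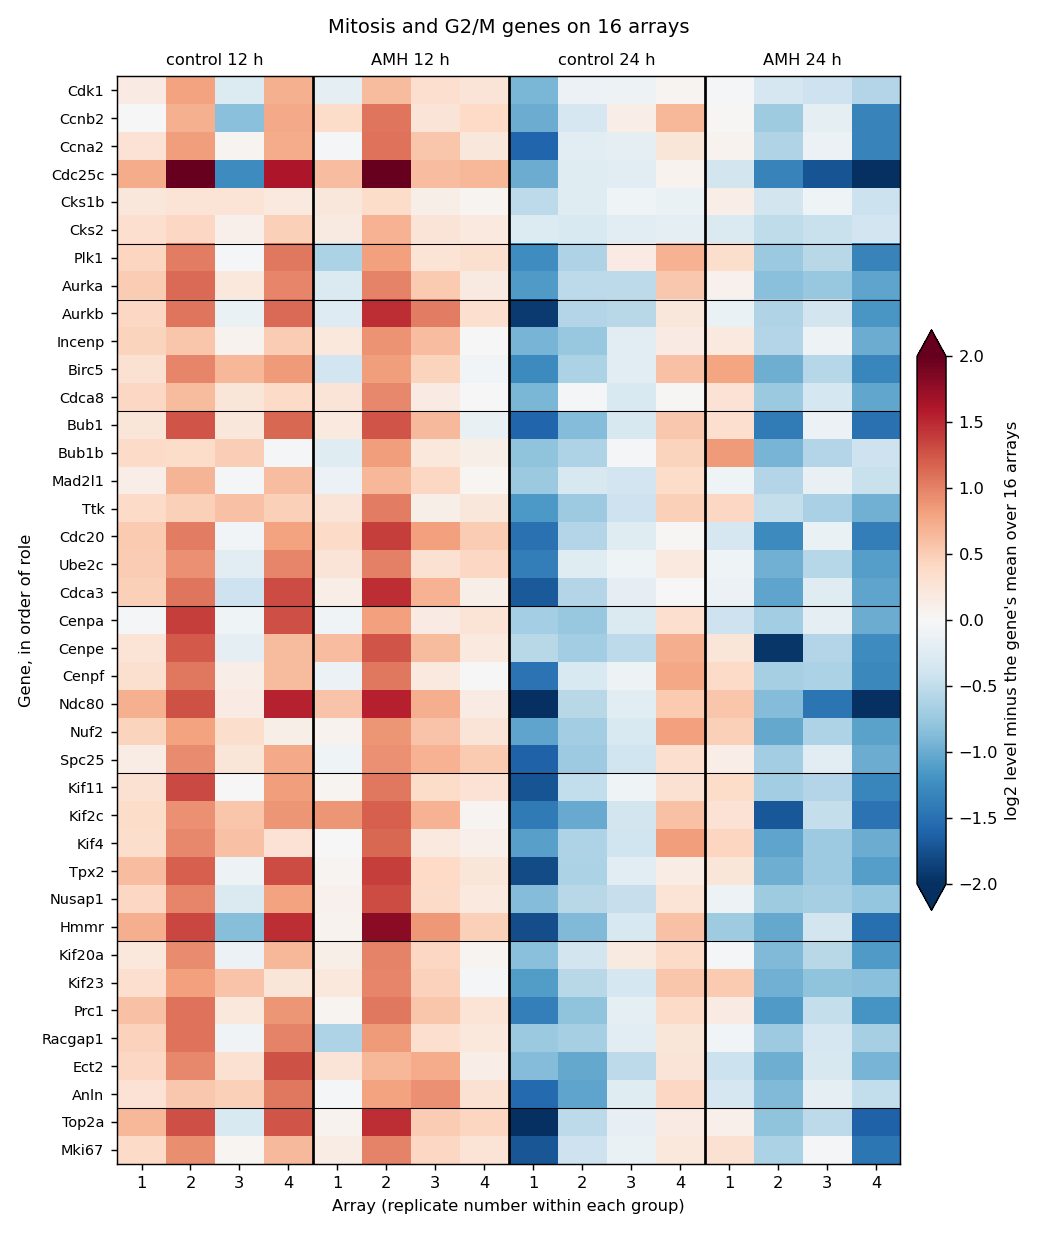
Level of each of the 39 genes (rows, in order of role) on each of the 16 arrays (columns, by group and replicate number), drawn as the log2 level minus the gene's mean over all arrays, from blue (below) to red (above); values beyond 2 in either direction take the end colour. The 12 h columns are mostly red and the 24 h columns mostly blue, with control replicate 4 and AMH replicate 1 at 24 h paler or red, and replicate 2 of both arms the reddest columns at 12 h.

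Among CDK1 and its partners, 5 of 6 measured genes fell, with a median of -0.67. Cks2, which encodes a small subunit that binds cyclin-dependent kinases, stood at 10.71, 10.79, 10.47 and 10.85 in controls at 12 h and at 10.09, 10.06, 10.16 and 10.18 at 24 h. With AMH its levels were 10.55, 11.07, 10.62 and 10.57 at 12 h and 10.08, 9.86, 9.92 and 9.99 at 24 h. Every 24 h array was below every 12 h array, and the 24 h values lay within a narrow band. Its change over both arms was -0.66 (SE 0.08), which is 1.58-fold lower, with the smallest p of the 39 (adjusted p = 2.52e-05). A second Cks2 probe set gave -0.59.

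Cks1b encodes the related subunit that also serves in the destruction of the inhibitor p27. It was at 11.09, 11.14, 11.15 and 11.07 in controls at 12 h and at 10.34, 10.63, 10.78 and 10.73 at 24 h, so the groups did not overlap. The AMH arrays held 11.09, 11.23, 10.99 and 10.93 at 12 h and 11.00, 10.51, 10.78 and 10.44 at 24 h, and here replicate 1 at 24 h reached the 12 h range. Over both arms the change was -0.44 (SE 0.09, adjusted p = 0.0014), and a second probe set gave -0.75. Cdc25c had control levels of 6.67, 7.92, 4.67 and 7.54 at 12 h and 4.94, 5.69, 5.72 and 6.00 at 24 h. The third 12 h control was below all of the 24 h controls, so the control groups overlapped. With AMH the levels went from 6.55, 8.05, 6.54 and 6.59 to 5.56, 4.60, 4.21 and 3.59 without overlap. The change of -1.78 (SE 0.41, adjusted p = 0.00404) averaged a control change of -1.11 and an AMH change of -2.44. The lowest AMH array, at 3.59, lay under 4.18, the level of the filter on mean signal.

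Ccnb2, a B-type cyclin, was at 8.04, 8.75, 7.21 and 8.79 in the 12 h controls and at 7.04, 7.71, 8.18 and 8.71 in the 24 h controls, which overlapped widely. With AMH it stood at 8.41, 9.11, 8.30 and 8.44 at 12 h and at 8.06, 7.33, 7.84 and 6.70 at 24 h, with no overlap. Cdk1 itself ranged from 7.89 to 8.96 over the 8 arrays at 12 h and from 7.24 to 8.22 at 24 h, a change of -0.61 (SE 0.18, adjusted p = 0.0147). The A-type cyclin gene Ccna2 had a change of -0.94 (adjusted p = 0.0107).

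Both other mitotic kinases fell. Aurka, the Aurora kinase of centrosomes and spindle poles, had control levels of 8.41, 9.04, 8.11 and 8.87 at 12 h and 6.76, 7.38, 7.38 and 8.44 at 24 h. The AMH arrays read 7.61, 8.89, 8.43 and 8.08 at 12 h and 7.98, 7.07, 7.14 and 6.84 at 24 h. In each arm a single 24 h array, control replicate 4 and AMH replicate 1, reached the 12 h range. The change was -1.06 (SE 0.24, 2.08-fold lower, adjusted p = 0.00376). Plk1, the polo-like kinase, had a change of -0.82 (SE 0.30) and passed narrowly, at an adjusted p of 0.0491.

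All 4 genes of the chromosomal passenger complex, which corrects faulty attachments and later guides cleavage, fell, with a median of -0.86. Incenp, its scaffold, stood at 10.08, 10.20, 9.71 and 10.14 in the 12 h controls and at 8.71, 8.88, 9.41 and 9.80 in the 24 h controls. With AMH its levels were 9.85, 10.54, 10.25 and 9.63 at 12 h and 9.84, 9.06, 9.54 and 8.64 at 24 h. Again the fourth control and the first AMH array of 24 h lay within the 12 h range. Its change was -0.82 (SE 0.19, adjusted p = 0.00411), beside -0.54 and -0.78 at its other probe sets. Birc5, which encodes survivin, was at 8.40, 9.07, 8.77 and 8.95 at 12 h and 6.83, 7.46, 7.87 and 8.69 at 24 h in controls. It was at 7.72, 8.94, 8.55 and 8.05 at 12 h and 8.89, 7.12, 7.53 and 6.80 at 24 h with AMH, where replicate 1 at 24 h stood above 3 of the 4 arrays of 12 h. Its change of -0.91 (SE 0.29) had an adjusted p of 0.0277. Aurkb, the kinase of the complex, changed by -1.27 (2.42-fold lower) and Cdca8, which encodes borealin, by -0.77.

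In the checkpoint and anaphase-promoting complex group 6 of 7 genes fell, with a median of -1.05. Cdc20, the activator of the anaphase-promoting complex, had control levels of 8.98, 9.47, 8.40 and 9.25 at 12 h and 6.96, 7.86, 8.20 and 8.47 at 24 h. In the AMH arm it was 8.83, 9.84, 9.27 and 8.96 at 12 h and 8.12, 7.18, 8.31 and 7.06 at 24 h. The AMH groups did not overlap, and in controls the fourth 24 h array exceeded the third 12 h array. Its change was -1.36 (SE 0.25), or 2.56-fold lower (adjusted p = 0.000717), with -1.03 and -1.07 at its other probe sets. Ube2c, the ubiquitin-conjugating enzyme that works with that complex, stood at 10.55, 10.96, 9.81 and 11.02 in 12 h controls and at 8.65, 9.80, 9.95 and 10.24 in 24 h controls. The AMH arrays had 10.30, 11.05, 10.35 and 10.46 at 12 h and 9.95, 9.08, 9.47 and 8.94 at 24 h, with no overlap between the times. Ube2c changed by -1.05 (SE 0.23, adjusted p = 0.00281).

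Of the checkpoint kinases in this group, Bub1 fell by 1.21 on the log2 scale (adjusted p = 0.0119) and Ttk by 0.88 (adjusted p = 0.00822). Mad2l1, the checkpoint protein that binds CDC20, fell by 0.59, and Cdca3, a trigger of mitotic entry, by 1.22. Bub1b, which did not pass, ranged from 7.73 to 8.80 at 12 h and from 7.04 to 8.82 at 24 h, and the highest of its 16 values was AMH replicate 1 at 24 h.

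All 6 centromere and kinetochore genes fell, with a median of -0.98. Cenpa, the histone variant that marks the centromere, was at 6.93, 8.35, 6.87 and 8.25 in controls at 12 h and at 6.28, 6.20, 6.67 and 7.29 at 24 h. With AMH it was at 6.89, 7.78, 7.13 and 7.24 at 12 h and at 6.55, 6.27, 6.76 and 5.97 at 24 h, without overlap. Its change was -0.93 (SE 0.24, adjusted p = 0.00836). Cenpe, a kinetochore motor, had control levels of 7.07, 8.02, 6.62 and 7.43 at 12 h and 6.24, 6.11, 6.27 and 7.53 at 24 h, of which the fourth 24 h value stood far above the other 3. In the AMH arm it read 7.42, 8.05, 7.43 and 7.00 at 12 h and 7.04, 4.85, 6.21 and 5.54 at 24 h, where replicate 1 was the highest. Its change was -1.15 (SE 0.30, adjusted p = 0.0085), and a second probe set gave -1.06.

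Spc25, a subunit of the NDC80 complex that grips microtubules, stood at 7.70, 8.49, 7.79 and 8.30 in the controls of 12 h and at 5.94, 6.83, 7.15 and 7.89 in those of 24 h. With AMH the values were 7.46, 8.46, 8.25 and 8.08 at 12 h and 7.69, 6.86, 7.34 and 6.55 at 24 h, and control replicate 4 and AMH replicate 1 were again the arrays of 24 h that reached the earlier range. It changed by -1.04 (SE 0.25, adjusted p = 0.00472), whereas its dimmer second probe set gave -0.01, so the probe sets disagreed. Of its partners in that complex, Ndc80 fell by 1.68 (SE 0.42) and Nuf2 by 0.87 (SE 0.26). Cenpf, a kinetochore protein of late G2, fell by 0.83 (adjusted p = 0.0418).

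The 6 spindle motors and microtubule proteins fell as well, with the lowest median of the groups of more than 2 genes, -1.16. Kif2c, a kinesin that shortens microtubules, had control levels of 7.75, 8.31, 7.94 and 8.28 at 12 h and 5.97, 6.38, 7.03 and 7.98 at 24 h. With AMH they were 8.28, 8.58, 8.09 and 7.44 at 12 h and 7.68, 5.70, 6.92 and 5.92 at 24 h. All but the fourth control and first AMH array of 24 h lay below the 12 h arrays of their arm. The change was -1.39 (SE 0.30, adjusted p = 0.00277), with -0.87 and -0.67 at its other probe sets.

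Nusap1, which stabilizes spindle microtubules, was at 8.64, 9.19, 7.93 and 9.02 at 12 h and 7.36, 7.67, 7.76 and 8.50 at 24 h in controls. With AMH it stood at 8.31, 9.52, 8.60 and 8.42 at 12 h and 8.12, 7.51, 7.56 and 7.44 at 24 h, with no overlap. Its change of -0.96 (SE 0.21) had an adjusted p of 0.0031. Tpx2, the activator of Aurora A on the spindle, read 8.40, 8.98, 7.69 and 9.09 in 12 h controls and 6.00, 7.16, 7.57 and 7.94 in 24 h controls. The AMH arm held 7.85, 9.17, 8.19 and 8.04 at 12 h and 8.04, 6.81, 7.06 and 6.69 at 24 h, where replicate 1 lay within the 12 h range. Tpx2 changed by -1.27 (SE 0.30, 2.41-fold lower, adjusted p = 0.00423). The bipolar spindle kinesin gene Kif11 fell by 1.06 on the log2 scale, the chromokinesin gene Kif4 by 0.91 and Hmmr, a spindle assembly factor, by 1.49, with adjusted p values of 0.0116, 0.0211 and 0.00653.

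All 6 cytokinesis genes fell, with a median of -0.99. Ect2, the exchange factor that switches on RhoA at the cleavage furrow, stood at 8.00, 8.54, 7.89 and 8.86 in controls at 12 h and at 6.71, 6.56, 7.05 and 7.84 at 24 h. With AMH it was at 7.83, 8.25, 8.32 and 7.71 at 12 h and 7.15, 6.60, 7.26 and 6.65 at 24 h. The times did not overlap in either arm. Its change was -1.20 (SE 0.20, 2.29-fold lower, adjusted p = 0.000312). Prc1, which bundles the microtubules of the central spindle, had control levels of 8.73, 9.22, 8.35 and 9.03 at 12 h and 6.77, 7.33, 7.94 and 8.53 at 24 h. Its AMH levels were 8.19, 9.19, 8.69 and 8.41 at 12 h and 8.30, 7.00, 7.66 and 6.96 at 24 h, and in each arm a single 24 h array reached the 12 h range. Prc1 changed by -1.17 (SE 0.25, adjusted p = 0.00248), and by -1.14 at its second probe set.

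Anln, the anillin of the contractile ring, was at 7.19, 7.44, 7.37 and 7.95 in 12 h controls and at 5.35, 5.84, 6.66 and 7.32 in 24 h controls, of which only the fourth entered the earlier range. With AMH the levels were 6.88, 7.70, 7.82 and 7.20 at 12 h and 6.56, 6.02, 6.70 and 6.40 at 24 h, and the times did not overlap. The change was -1.09 (SE 0.24, adjusted p = 0.00299), with -0.87 at a second probe set.

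Kif20a, a kinesin of the central spindle, read 8.43, 9.16, 8.11 and 8.88 at 12 h and 7.39, 7.86, 8.40 and 8.61 at 24 h in controls. In the AMH arm it read 8.34, 9.21, 8.64 and 8.28 at 12 h and 8.18, 7.33, 7.67 and 7.09 at 24 h, without overlap. It changed by -0.81 (SE 0.21, adjusted p = 0.00869). Racgap1, the partner of Ect2 at the central spindle, had control levels of 7.58, 8.21, 7.05 and 8.11 at 12 h and 6.38, 6.46, 6.89 and 7.36 at 24 h. With AMH it held 6.50, 7.97, 7.46 and 7.33 at 12 h and 7.07, 6.39, 6.78 and 6.45 at 24 h, and the first array of 12 h was below 2 of the 4 arrays of 24 h. Its change was -0.80 (SE 0.22, adjusted p = 0.0115). Kif23, the partner kinesin of Racgap1, fell by 0.89 (adjusted p = 0.0116).

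Top2a, the topoisomerase that untangles sister chromatids, ranged from 7.74 to 9.52 at 12 h and from 6.00 to 8.20 at 24 h. Mki67, the gene of the Ki-67 proliferation marker, ranged from 9.80 to 10.75 at 12 h and from 8.05 to 10.07 at 24 h. Top2a changed by -1.35 (SE 0.33, adjusted p = 0.00624) and Mki67 by -0.96 (SE 0.27, adjusted p = 0.0134). Of the members shown array by array, further probe sets gave -1.62 for Cdc25c, -0.86 for Cenpa, -0.99 for Nusap1, -0.95 for Tpx2 and -0.87 for Racgap1. Over the 39 genes, 24 had more than 1 probe set past the filter. The 32 further probe sets all had changes below 0, with a median of -0.88 and a range from -1.62 to -0.01, and 23 of them were called lower when all 23238 probe sets were tested. The share of all probe sets called lower in that test is not given here. In the fit of 1 probe set per gene, 15.1% of all genes were called lower.

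Arm by arm, the same direction was seen with fewer calls. In controls 12 of 39 genes were lower at 24 h by limma, against 9.19% of all genes, with a median of -0.96; they were Cks2, Ect2, Cks1b, Anln, Prc1, Cdc20, Tpx2, Aurka, Spc25, Incenp, Racgap1 and Aurkb. In controls the changes of Cks2 at -0.58 (SE 0.11, adjusted p = 0.00239) and of Ect2 at -1.28 (SE 0.28, adjusted p = 0.00473) had the smallest p values, and that of Ect2 was 2.44-fold. With AMH 9 of 39 were lower, against 3.94% of all genes, with a median of -0.995: Cks2, Cdc20, Cdc25c, Ect2, Cenpe, Ube2c, Kif2c, Kif20a and Nusap1. There Cks2 changed by -0.74 (SE 0.11, adjusted p = 0.00112), Cdc20 by -1.56 (SE 0.35, adjusted p = 0.0116) and Cdc25c by -2.44 (SE 0.58, adjusted p = 0.0171), which is 5.44-fold lower.

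Cks2, Cdc20 and Ect2 were called in both arms. The genes called in a single arm were not shown to differ between the arms, since the test of that difference, given with the AMH effects below, called none. The per-arm counts moved with single arrays. In controls 3 genes were called without control replicate 1 at 24 h, without control replicate 2 at 24 h or without control replicate 4 at 12 h, 4 without control replicate 2 at 12 h, 7 without control replicate 3 at 24 h, 21 without control replicate 3 at 12 h or AMH replicate 1 at 24 h, and 30 without control replicate 4 at 24 h. With AMH 2 were called without AMH replicate 4 at 24 h, 3 without AMH replicate 2 at 24 h or AMH replicate 3 at 12 h, 4 without AMH replicate 2 at 12 h, 15 without control replicate 1 at 24 h, and 18 without AMH replicate 1 at 24 h. With the 3 arrays richest in oocyte transcripts left out, the counts were 37 in controls, 29 with AMH and 39 for both arms averaged. The medians were -1.41, -1.24 and -1.28, against -0.01 over all genes in each fit. Those 3 arrays were control replicate 3 at 12 h, and control replicate 4 and AMH replicate 1 at 24 h. In the mean of the 39 genes they were the lowest 12 h array (7.88) and the highest 24 h arrays (8.20 and 7.95). Leaving them out therefore deepens the fall by itself, and these counts are no support for it. The share of all genes called in these fits, or with single arrays left out, is not given here.

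**Figure D3:**
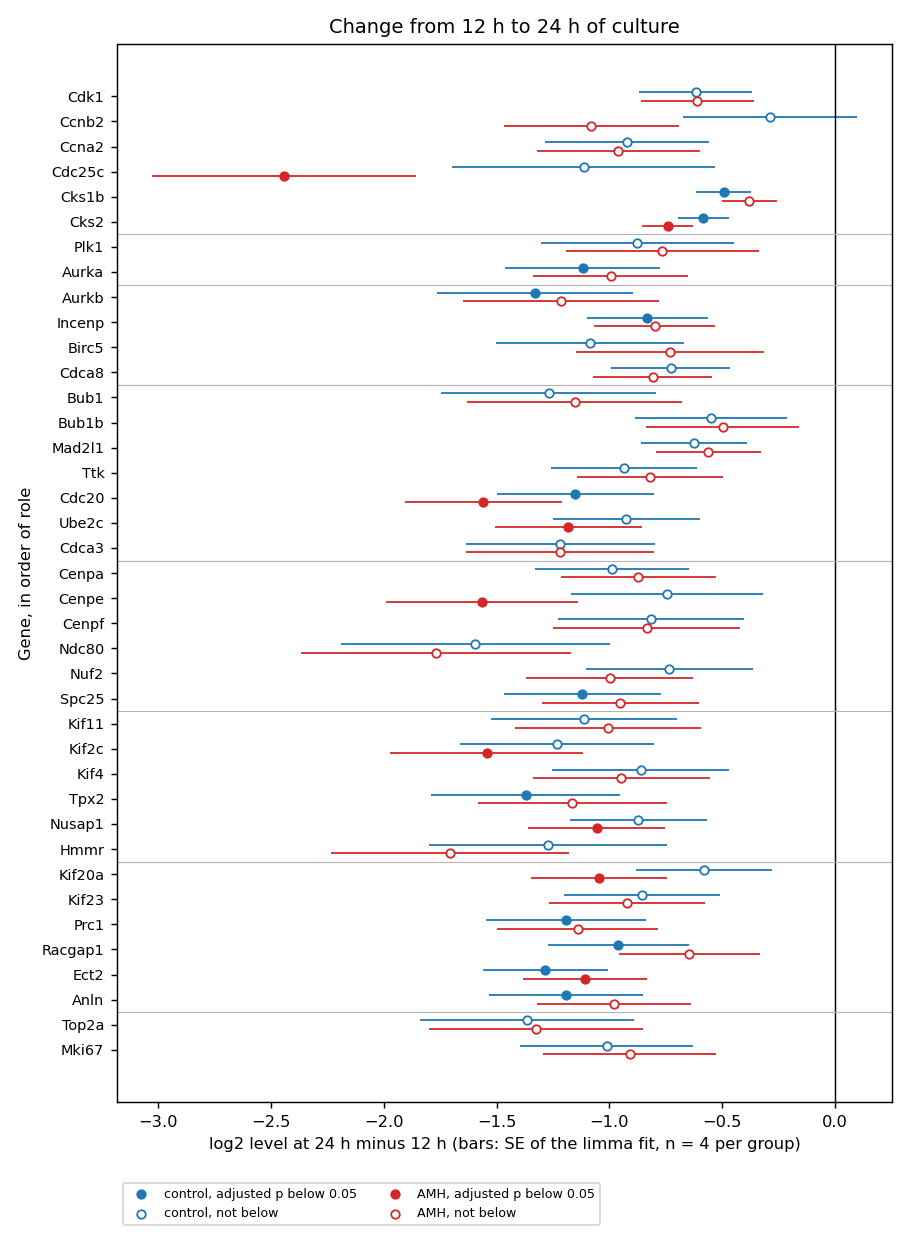
Change of each gene from 12 h to 24 h in controls (blue) and with AMH (red), as the log2 level at 24 h minus that at 12 h, with bars of 1 SE from the limma fit on 4 arrays per group; filled points have an adjusted p below 0.05. Every point lies left of 0, and the 2 arms overlap within their bars for most genes, the widest apart being Cdc25c, at -1.11 in controls and -2.44 with AMH, and Cenpe, at -0.74 and -1.56.

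Other mitosis genes, from a list of genes of the same processes, moved in the same direction: 38 of 55 fell over both arms and none rose, with a median of -0.74, against 15.1% of all genes called lower and 15.3% called higher. Zwint, a kinetochore protein, changed by -0.54 (SE 0.06, adjusted p = 1.22e-05), Cep55, which acts in the final cut between daughter cells, by -1.12 (adjusted p = 0.00112), Gtse1, a microtubule-binding protein of G2, by -1.05 (adjusted p = 0.00128) and Sgo1, the guardian of centromeric cohesion, by -0.96 (adjusted p = 0.00148). In controls 10 of the 55 fell, led by Zwint, Bub3, Ccnf and Cep55, with Ccnf, a cyclin F gene, at -1.46 (adjusted p = 0.0172). With AMH 8 fell, led by Zwint, Sgo1, Gtse1 and Pimreg, with Sgo1 at -1.44 (adjusted p = 0.00414).

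Of 36 S phase genes, which copy the DNA before mitosis, 16 were called lower over both arms and none higher, with a median of -0.46, beside the same shares of all genes. Pcna, the sliding clamp of replication, changed by -0.50 (SE 0.10, adjusted p = 0.00112), the origin recognition gene Orc6 by -0.47 (adjusted p = 0.00148), the clamp loader gene Rfc4 by -0.66 (adjusted p = 0.00178) and the primase gene Prim1 by -0.72 (adjusted p = 0.00246). In controls 7 of 36 fell, against 9.19% of all genes, led by Pcna, Prim1, Orc6 and the helicase gene Mcm6. With AMH Rfc4 was the 1 gene of 36 that passed, at -0.77 (adjusted p = 0.0217), a smaller share than the 3.94% of all genes.

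Upstream regulators and brakes of the cell cycle were mixed: 10 of 25 fell and 4 rose over both arms, with a median of -0.43. The count that rose is near the share of all genes called higher, 15.3%, and 15.1% were called lower. Gadd45b, a stress-inducible inhibitor of CDK1, changed by -0.93 (SE 0.13, adjusted p = 9.72e-05) and Pkmyt1, the kinase that holds CDK1 inactive, by -0.77 (adjusted p = 0.00052). Lin54, the subunit of MuvB that binds the CHR, changed by -0.72 (adjusted p = 0.000912) and Lin9, another subunit, by -0.51 (adjusted p = 0.0022). Named after their values were seen, the 4 that rose were Rbl2, which encodes the p130 of resting cells, at 0.49, the inhibitor gene Cdkn1b at 0.57, the cyclin D2 gene Ccnd2 at 0.55 and Gadd45a at 0.67. Gadd45a averaged opposite values, 1.64 in controls and -0.30 with AMH (adjusted p = 0.641 in the latter). Among those that fell, also named after their values were seen, were Foxm1, the activator of G2/M promoters, at -1.08, the inhibitor genes Cdkn1a at -0.46 and Cdkn1c at -1.07, and the repressor genes E2f7 at -1.14 and E2f8 at -1.17. Foxm1 and Cdkn1a passed in neither arm alone. Not called over both arms were Rbl1, which encodes p107, at -0.43, the B-MYB gene Mybl2 at -0.54 and E2f4 at 0.05. Nor were the NF-Y genes Nfya at -0.02, Nfyb at 0.09 and Nfyc at -0.07. In controls 6 fell and 3 rose, against 9.19% and 9.96% of all genes, led by Gadd45a at 1.64 (adjusted p = 0.00279), Pkmyt1, Lin54 and Gadd45b. Cdkn1b was among those that rose in controls, at 0.92 (adjusted p = 0.0143), and Cdkn1c among those that fell, at -1.85 (adjusted p = 0.0257). With AMH 3 fell, Gadd45b at -1.13 (adjusted p = 0.00198), Lin9 and Pkmyt1, and none rose, against 3.94% and 4.34% of all genes. There Cdkn1b stood at 0.22 (adjusted p = 0.649) and Cdkn1c at -0.28 (adjusted p = 0.814). The difference between the arms was called for neither of them.

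Cell type markers moved with time as well, and their counts stand beside 15.3% of all genes called higher and 15.1% called lower. Over both arms 9 of 12 granulosa markers rose and 1 fell, and the mean of the 12 ranged from 8.04 to 9.33 on the 12 h arrays and from 9.13 to 10.16 on the 24 h arrays. Of 12 stroma and smooth muscle markers 9 rose, and of 5 theca markers 3 rose. None of 26 oocyte markers passed, with a median of -0.22, and their mean ranged from 6.81 to 9.08 at 12 h and from 7.06 to 8.78 at 24 h. Of 12 immune markers 4 fell, and of 13 surface epithelium markers 4 fell and 1 rose; of 14 endothelial markers none passed, with a median of -0.38. In a fit that also held the oocyte mean, the median change of the 39 genes over both arms was again -0.96, with 35 of 39 called. The part of the other cell types in the fall was not tested. For the markers as well, a change in the number of cells and a change in RNA per cell cannot be told apart.

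**Figure D4:**
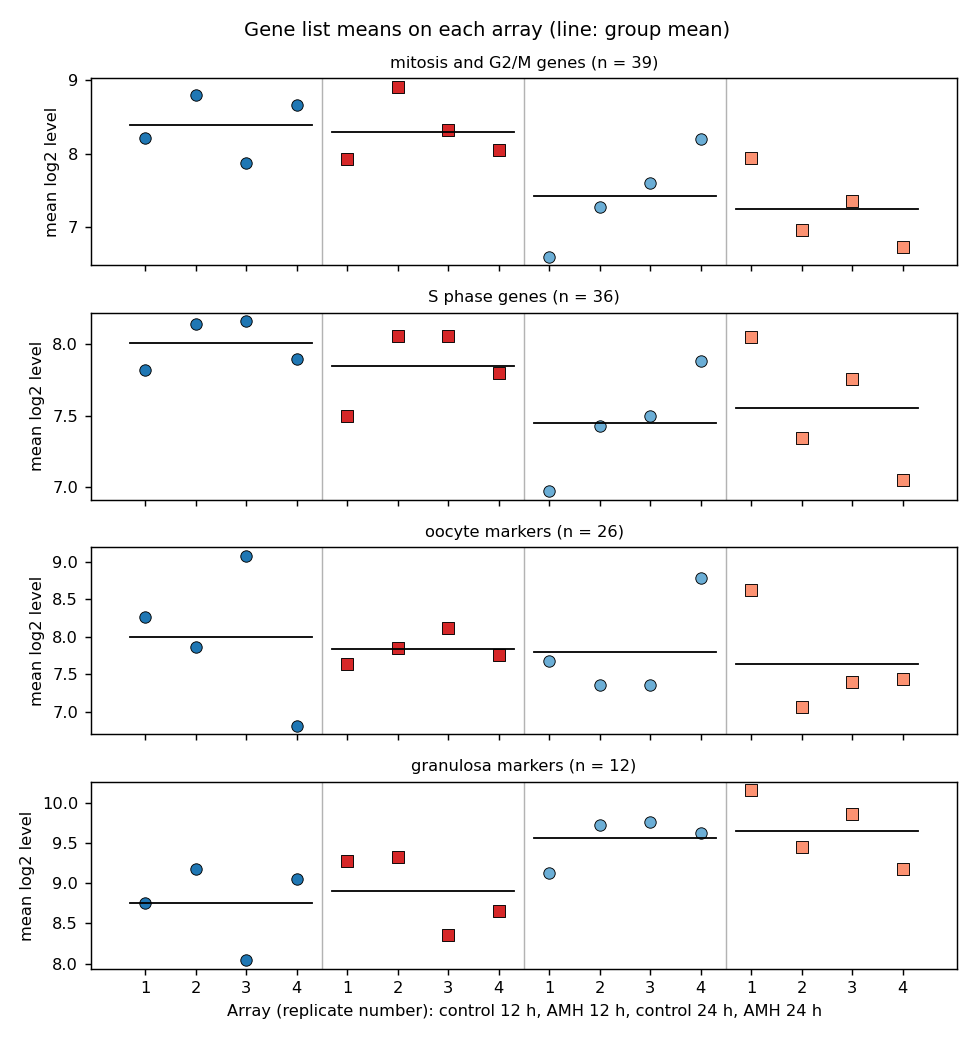
Mean log2 level of 4 gene lists on each of the 16 arrays (points; lines are group means over 4 arrays), from left to right control 12 h, AMH 12 h, control 24 h and AMH 24 h. The mitosis genes and the S phase genes are lower at 24 h in both arms, the granulosa markers are higher, and the oocyte markers range from 6.81 to 9.08 with control replicate 4 and AMH replicate 1 highest at 24 h.

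After 12 h, no difference between AMH-treated and control follicles was called for any of the 39 genes. The 95% confidence intervals were wide, that of Ndc80 running from -1.72 to 1.38. Limma called 0 of 39, against 0% of all genes, and 0 of 39 had an unadjusted p below 0.05, against 6.47% of all genes. The median SE was 0.37 for the 39 and 0.17 over all genes, so at an equal change fewer of the 39 would pass. The median change was -0.08, with a range from -0.48 for Birc5 to 0.37 for Ccnb2. The smallest p belonged to Racgap1, whose differences in pairs 1 to 4 were -1.08, -0.23, 0.41 and -0.77. Its change was -0.42 (SE 0.27, 95% confidence interval -1.02 to 0.18, adjusted p = 0.839), so that pair 3 ran against the others. Cenpa had pair differences of -0.04, -0.56, 0.26 and -1.02 and a change of -0.34 (SE 0.27, adjusted p = 0.886).

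Birc5 was the 1 gene of the 39 below 0 in all 4 pairs, with differences of -0.68, -0.13, -0.22 and -0.90; 17.9% of all genes had 1 direction in 4 of 4 pairs. Its change of -0.48 (SE 0.45) had an adjusted p of 0.899. Ect2 had differences of -0.17, -0.29, 0.43 and -1.15 and Aurka of -0.79, -0.16, 0.32 and -0.79, with changes of -0.30 and -0.35 at adjusted p values of 0.9 and 0.908. Ccnb2 went the other way, with 0.36, 0.36, 1.10 and -0.35 and a change of 0.37 (SE 0.38, adjusted p = 0.915). By pair, 35, 13, 7 and 37 of the 39 genes were lower with AMH in pairs 1 to 4, with medians of -0.25, 0.14, 0.43 and -0.60. Pair 3, in which most genes were higher with AMH, held the control with the highest oocyte mean (9.08, against 8.12 on its AMH array). Pair 4, in which most were lower, held the control with the lowest (6.81, against 7.75). In pair 1, where most were also lower, the oocyte mean ran the other way, at 8.26 in the control and 7.64 with AMH. In pair 2 it was 7.86 and 7.85.

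After 24 h, again none of the 39 was called with AMH, against 0.0164% of all genes. The median change was -0.15, from -1.10 for Cdc25c to 0.16 for Spc25, and 32 of the 39 lay below 0, against 48.4% of all genes. At 12 h 28 of the 39 lay below 0, against 48.0% of all genes. Most of the 39 genes moved together within a pair, so neither count is one of independent genes. Cdc25c was the 1 gene with an unadjusted p below 0.05 by limma (its adjusted p was 1), which is 2.56% of the genes against 4.07% of all. Its pair differences were 0.62, -1.09, -1.51 and -2.41, a change of -1.10 (SE 0.48, 95% confidence interval -2.17 to -0.03), or 2.14-fold lower. Pair 1 ran against the other 3. As at 12 h, the median SE was 0.37 for the 39 genes against 0.17 over all.

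Kif20a had differences of 0.79, -0.53, -0.73 and -1.52 and a change of -0.50 (SE 0.30). Those of Cenpe were 0.80, -1.26, -0.06 and -1.99, with a change of -0.63 (SE 0.38). Both had an adjusted p of 1. Cks2 was the 1 gene below 0 in all 4 pairs, against 9.39% of all genes of 1 direction, though its differences were small, -0.01, -0.20, -0.24 and -0.19, with a change of -0.16 (SE 0.10, 95% confidence interval -0.39 to 0.07). Ccnb2 had differences of 1.03, -0.38, -0.34 and -2.01 and Ube2c of 1.30, -0.73, -0.47 and -1.30, with changes of -0.43 and -0.30, both at an adjusted p of 1.

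The small median at 24 h averaged large and opposed differences within pairs. In pair 1, 38 of the 39 genes were higher with AMH, with a median of 1.52, or 2.87-fold. In pair 4, all 39 were lower with AMH, with a median of -1.44, or 2.71-fold. Pairs 2 and 3 had 33 and 28 genes lower, with medians of -0.31 and -0.23. Ndc80 ranged widest, from 2.99 in pair 1 to -2.82 in pair 4, and Top2a had 2.14 and -1.77 in these pairs. Over all genes tested, the medians of the 4 pairs were 0.03, 0.01, 0.00 and -0.00.

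The array high in mitosis genes was also the array high in oocyte markers in both of these pairs. In pair 1 the oocyte mean was 7.67 in the control and 8.63 with AMH, beside means of 6.60 and 7.95 for the 39 genes. In pair 4 it was 8.78 in the control and 7.43 with AMH, beside 8.20 and 6.73. The granulosa mean went the same way, from 9.13 to 10.16 in pair 1 and from 9.63 to 9.18 in pair 4. At 12 h the order was mixed. The control with the highest oocyte mean (9.08) had the lowest mean of the 39 genes on any 12 h array (7.88). In pair 1 of 12 h the AMH array was lower in oocyte markers (7.64 against 8.26) and in the 39 genes (7.93 against 8.22). Adding the oocyte mean to the fit gave a median change at 24 h of -0.06, and with pairs 1 and 4 left out it was -0.28, again with none of the 39 called. It was -0.70 without replicate 1 and 0.27 without replicate 4, so its direction turned on a single pair.

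**Figure D5:**
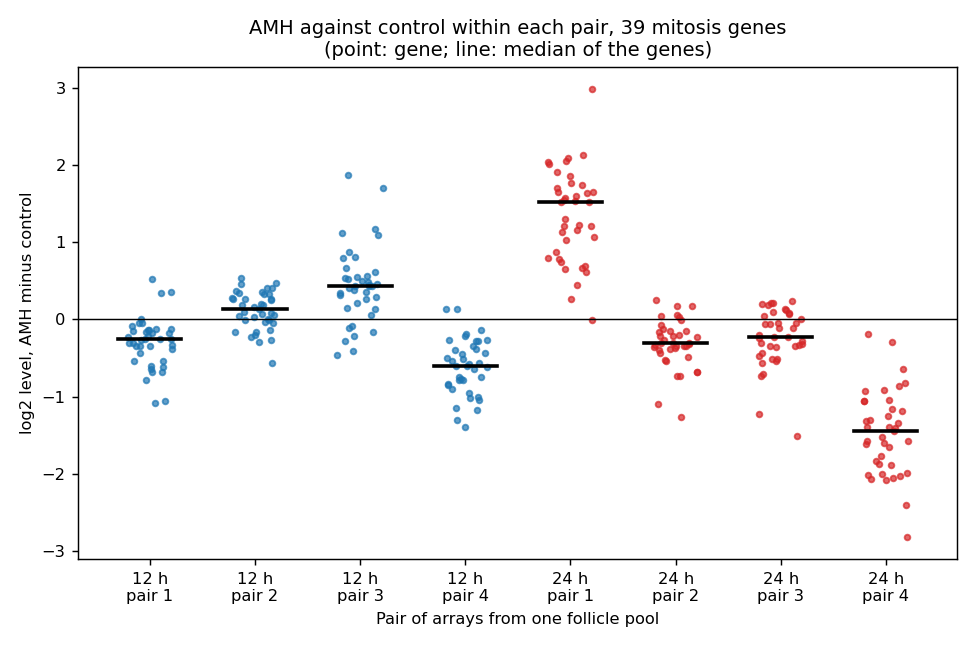
Difference between the AMH array and the control array of each pair, in log2 level, for the 39 genes (points, spread sideways for legibility) with their median (line), in the 4 pairs of 12 h (blue) and the 4 pairs of 24 h (red). The medians at 12 h lie between -0.60 and 0.43, while pairs 1 and 4 at 24 h stand at 1.52 and -1.44.

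The AMH effect at 24 h minus that at 12 h, which is also the test of whether the change with time differed between the arms, called none of the 39 (0% of all genes, by limma), and none had an unadjusted p below 0.05, against 5.64% of all genes. The median SE was 0.53 for the 39 genes against 0.25 over all. The median difference was 0.03. Cdc25c had the largest, at -1.33 (SE 0.69, 95% confidence interval -2.84 to 0.18, adjusted p = 0.896), followed by Cenpe at -0.82 (SE 0.54) and Ccnb2 at -0.79 (SE 0.53). Kif20a stood at -0.47, Cks2 at -0.16 (95% confidence interval -0.48 to 0.16) and Cdc20 at -0.41. These intervals are wide, and a difference of the size of the change with time itself would lie within that of Cdc25c.

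The other cell cycle lists had no call for AMH either. At 12 h the smallest p values were those of Sgo1 at 0.45 and the kinetochore gene Cenpm at -0.57 among 55 other mitosis genes, of the clamp loader gene Rfc3 at -0.33 and Pole2, of a replicative polymerase, at -0.32 among 36 S phase genes, and of Gadd45a at 1.14 (SE 0.22, adjusted p = 0.277) and E2f4 at -0.58 among 25 upstream genes. At 24 h they were Pimreg at -0.79 and the spindle gene Fam83d at -0.52, Prim1 at 0.37 and Mcm6 at 0.33, and Gadd45a at -0.79 (SE 0.22, adjusted p = 0.813) and the inhibitor gene Cdkn1c at 1.67 (SE 0.55, adjusted p = 0.91). For the difference between the times they were Sgo1 at -0.96 and Fam83d at -0.68, Prim1 at 0.54 and Pcna at 0.38, and Gadd45a at -1.93 and the S phase activator gene E2f1 at 0.93. None of these passed by limma, and the lowest adjusted p, that of Gadd45a for the difference, was 0.21.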

How the data were processed

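RNA from 16 samples (4 groups of 4) was hybridised to single-colour Affymetrix expression arrays after amplification from 5 ng. The intensity values are the authors' deposited MAS5 signals, per the submitters' processing notes, with the version not given in the sources used here. Their trimmed mean (2% from each end) was 149.96 to 149.97 on every array, so no rescaling was done. Of 45101 probe sets, 64 are controls, 34945 have 1 gene symbol, 932 several and 9160 none; only those with 1 symbol were named. Each gene was taken from its probe set with the highest mean, and genes whose mean reached the 40th percentile over all probe sets (a signal of 16.6) were tested.

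Values were tested as log2(signal + 1.46) with limma 3.58.1 in R 4.3.3 (lmFit, eBayes with trend, Benjamini-Hochberg over 12172 genes, two-sided, threshold 0.05), and tables and figures were made with Python 3.11.15, pandas 2.3.3 and matplotlib 3.10.9. The code was tested on simulated data. AMH effects were fitted with the 8 pairs as a block, since the labels tie each AMH array to a control of the same pool. The correlation of the pair partners' deviations from their group means was 0.299, 0.349, 0.560 and 0.214 at 12 h and -0.437, 0.327, 0.200 and -0.287 at 24 h. Changes with time were fitted on 4 group means without a block, because no label ties 12 h to 24 h arrays. The labels do not say that each pool was a separate set of mice, so p-values measure the spread between these samples.

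Members and gene lists were chosen with earlier results of these data known. Shown array by array are, per comparison, the members past the threshold (at most 10, by smallest p), or the 6 with the smallest p where fewer than 6 passed. From each other cell cycle list, up to 4 genes past the threshold, or 2 where none passed, are named by smallest p. Alternatives were other offsets, filters, scalings and probe set rules, robust moderation, array weights, the oocyte mean as a covariate, the pairing, and leaving out replicates. Leaving out single arrays, leaving out the 3 arrays richest in oocyte transcripts (with their pair partners for AMH effects only), and 1 value per pair were chosen after seeing the data. Comparisons of one arm with time and of AMH at one time share arrays, so they are not independent.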

Additional observations from a re-analysis of the deposited data

Results flagged for a closer look

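Over 160 groups of 4 arrays tested (39 genes and the mean of the 39, in 4 groups), a single array stood apart in 8, with a gap to its neighbour above Dixon's critical share of the group's range. Chance flags about 1 group in 20, which over 160 groups is the count found here. The array was the highest of its group in all 8. AMH replicate 2 at 12 h stood apart for Ccnb2 at 9.11 (next array 8.44), Cdc25c at 8.05 (next 6.59), Cks2 at 11.07 (next 10.62), Ttk at 7.62 (next 6.85) and Kif4 at 7.51 (next 6.55). Control replicate 4 at 24 h did so for Cenpe at 7.53 (next 6.27). AMH replicate 1 at 24 h did so for Nusap1 at 8.12 (next 7.56) and Kif23 at 8.29 (next 6.96).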

How the results depend on the processing

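The direction of the median change with time was below 0 under every alternative, from -1.41 to -0.71 in controls, from -1.35 to -0.72 with AMH and from -1.28 to -0.72 over both arms. The number of the 39 genes called over both arms was 11 to 39 when a replicate or a single array was left out, with 11 only without replicate 2. It was 35 to 39 under the other alternatives, with 37 for 1 value per pair. The counts within an arm moved more. In controls 12 became 34 with array weights, 28 with median centring and 37 without the 3 arrays richest in oocyte transcripts, and ranged from 1 to 30 when replicates or single arrays were left out. With AMH 9 became 30 with array weights and 29 without those 3 arrays, and ranged from 1 to 24. Those 3 arrays were also the extreme ones for the 39 genes, lowest at 12 h and highest at 24 h. Their removal therefore deepens the fall by itself. Only without replicate 2 was 1 gene left in either arm. The share of all genes called under each alternative is not given here, and the causes were not tested. Cks2 was called lower in all 3 comparisons under all alternatives. With the replicate number as a block over time, 11 genes were called in controls, 7 with AMH and 35 over both arms. The labels do not say whether a number marks a shared pool across times, and the correlation of 12 h and 24 h arrays of one number, -0.409 to 0.247, does not settle it.

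No gene of the 39 was called for AMH at 12 h, at 24 h or for their difference under any alternative, including the fit with no replicate block (0 genes). As replicates were left out, Ccnb2 at 24 h ranged from -0.91 to 0.10 and Ube2c from -0.83 to 0.034, both above 0 without replicate 4. The median at 24 h ranged from -0.70 to 0.27, at 12 h from -0.27 to 0.06, and for the difference from -0.63 to 0.29. Median centring moved the median of all genes by -0.18 for time in controls, -0.10 for time over both arms, 0.12 for AMH at 24 h and 0.15 for the difference. Cdc25c has no value under the filter at the 60th percentile. Of the values of single named genes, 538 stayed on their side of the threshold, 112 lost it and 2 changed sign when a replicate or a single array was left out. Under the other alternatives 571 stayed and 19 lost it.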
